A study of Mus musculus with 2 samples.

Results

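A set of 7 mature miRNAs known from lymphocyte development was followed in exosomes of mouse macrophages: mmu-miR-181a-5p, mmu-miR-181b-5p, mmu-miR-181c-5p, mmu-miR-181d-5p, mmu-miR-150-5p, mmu-miR-150-3p and mmu-miR-342-3p, where mmu stands for mouse. They were taken by name, and all 7 were found among the 1976 mature miRNAs listed for each library. Exosomes are small vesicles that cells release with RNA inside. The macrophages were grown from bone marrow of C57BL/6 mice aged 5 to 6 weeks with 10 ng/mL of the growth factor M-CSF for 7 days. They were then given 20 ng/mL of IFN-γ (M1) or 20 ng/mL of IL-4 (M2) for 1 day, and exosomes were gathered over 2 days in serum-free medium. Each state is represented by 1 small RNA library, with no untreated library among the samples, so replicate errors cannot be given and each difference is between 2 libraries rather than 2 conditions.

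A mature miRNA is cut from 1 arm of a short RNA hairpin, the 5′ arm (5p) or the 3′ arm (3p), and guides the silencing of messenger RNAs that pair with its seed, bases 2 to 8. The more abundant arm is called the guide and the other the passenger. In lymphocytes miR-181a sets how strongly thymocytes respond through the T cell receptor and favours B cell formation, and miR-181b restrains the enzyme that mutates antibody genes. miR-150 is high in mature B and T cells, where it represses the transcription factor c-Myb, and low in their progenitors. miR-342 is made from an intron of Evl, a gene of the actin cytoskeleton, and is expressed across blood cells.

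RefSeq mature sequences (GRCm38.p6) were found for 6 of the 7 members, the exception being miR-150-5p. The sequences of the miR-181 guides and miR-342-3p are shown because the first group shares its seed, so that reads of its forms can be told apart only by the rest of the molecule. Capitals mark the seed.
miR-181a-5p: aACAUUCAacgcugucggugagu
miR-181b-5p: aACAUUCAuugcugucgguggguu
miR-181c-5p: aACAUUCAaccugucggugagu
miR-181d-5p: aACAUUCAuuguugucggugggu
miR-342-3p: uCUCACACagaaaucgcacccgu

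The seed ACAUUCA occurred in 4 of the 1679 mature names of the RefSeq table, which were the 4 miR-181 guides. Counted from the 5′ end, miR-181b-5p differed from miR-181d-5p by the substitution C12U and by 1 more base at its 3′ end. miR-181a-5p differed from miR-181b-5p by A9U, C10U and A21G, and miR-181b-5p was again 1 base longer. miR-181a-5p and miR-181c-5p were 1 edit apart, miR-181c-5p being 1 base shorter. How reads matching more than 1 form were assigned is not given in the sources used here, so the split between forms this similar is uncertain. The seed of miR-342-3p, CUCACAC, was found in no other mature name of that table.

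The 8 hairpins lie at 5 places in the genome (GRCm38, hairpin positions from GENCODE M21). Mir181a-1 (137966455 to 137966541) and Mir181b-1 (137966639 to 137966718) are 97 bases apart on the plus strand of chromosome 1. Both overlap an exon of the long non-coding RNA gene A430106G13Rik on their own strand. That gene starts at 137966531, so Mir181a-1 overlaps it only by its last bases. Both hairpins also overlap an intron of the non-coding transcript Gm4258 on their own strand, and are antisense to an intron of Gm26936. Mir181a-2 (38852735 to 38852810) and Mir181b-2 (38853830 to 38853918) are 1019 bases apart on the plus strand of chromosome 2, antisense to an intron of the nuclear receptor gene Nr6a1, and Mir181b-2 also to an exon of Gm44144. Mir181c (84178873 to 84178961) and Mir181d (84178716 to 84178787) are 85 bases apart on the minus strand of chromosome 8, in an intron of Nanos3. Mir342 lies at 108658620 to 108658718 on the plus strand of chromosome 12, in an intron of Evl. Mir150 lies at 45121757 to 45121821 on the plus strand of chromosome 7 and overlapped no other annotated gene. The guides miR-181a-5p and miR-181b-5p are each made from 2 hairpins, on chromosomes 1 and 2, which their sequences do not separate.

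Values are given on the deposited log2 scale, or as a level, obtained by undoing the logarithm and subtracting 1, in units of that scale, whose total in reads is unknown. At low levels the values fall on steps that were read as whole reads. The worth of 1 read lay between 0.695 and 0.80 units in the M1 library (101 miRNAs at 1 read) and between 1.22 and 1.39 units in the M2 library (131 miRNAs), so equal low levels stand for more reads in M1 than in M2 exosomes. The ratio is the log2 value in the M1 library minus that in the M2 library. A miRNA was compared if it reached 10 units in at least 1 library, and was counted as different at 2-fold, a log2 ratio of 1 in size. Levels summed to 686353 units in the M1 and 734637 units in the M2 library. Mature miRNAs of the hairpins studied are 21 to 24 bases long, and levels of different miRNAs are compared without a length scaling.

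Of the 5 members that could be compared 4 were at similar levels in both libraries, and only miR-150-5p was over 2-fold higher in the M2 library. Thus 1 of 5 differed, against 49.0% of the 337 miRNAs compared. In the direction of M2 exosomes the background was 22.8%, and in the direction of M1 exosomes, where 0 of the 5 members lay, it was 26.1%. With 5 members these shares do not set the members apart. The median log2 ratio of the 5 was 0.15, beside 0.04 over all compared miRNAs. The other 2 members, miR-181c-5p and miR-150-3p, were listed at 0 in both libraries and were not compared. Counting error alone allows 3 reads behind a level of 0, which are worth 2.40 units for M1 exosomes and 3.67 units for M2 exosomes.

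**Figure D1:**
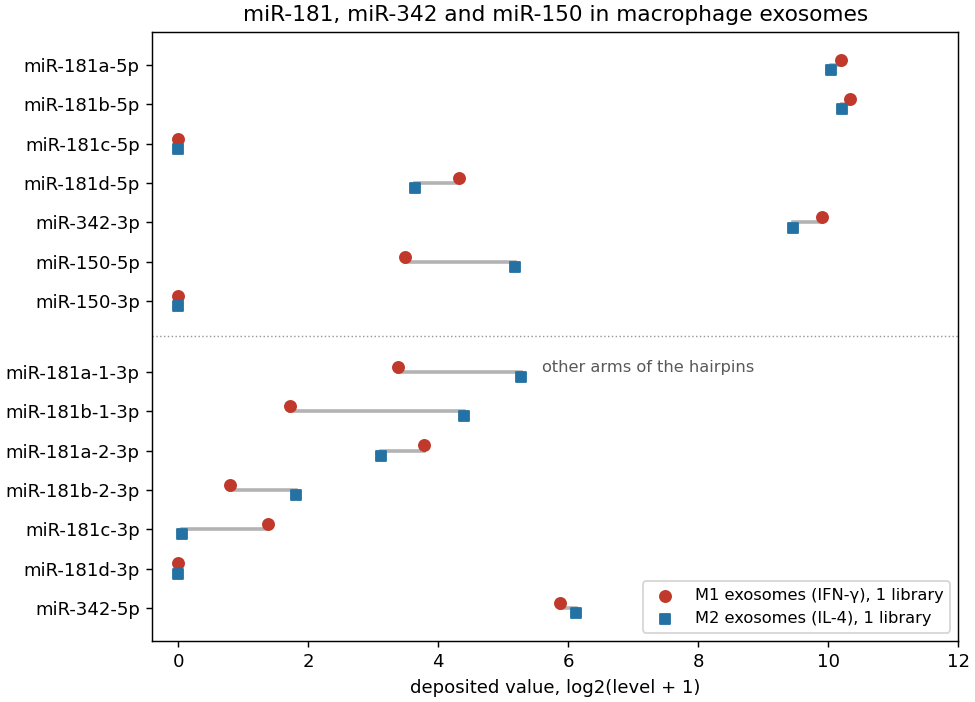
Deposited log2 value (horizontal axis) of the 7 members and of the 7 other arms of their hairpins in the M1 library (red circles) and the M2 library (blue squares), with a grey line joining the pair. miR-181a-5p, miR-181b-5p and miR-342-3p lie between 9.46 and 10.34 in both libraries, while miR-150-5p lies at 3.48 in the M1 and 5.18 in the M2 library.

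The abundant members were the guides of miR-181a and miR-181b. miR-181a-5p had a log2 value of 10.19 in the M1 library and 10.04 in the M2 library, or 1170 and 1053 units. Its log2 ratio was 0.15, and it ranked 53rd and 47th of all miRNAs listed. miR-181b-5p had 10.34 and 10.21, or 1297 and 1186 units, with a log2 ratio of 0.13 and ranks of 51 and 44. The 2 guides thus stood at nearly equal levels, and the level of miR-181b-5p was 1.11 times that of miR-181a-5p in the M1 library and 1.13 times in the M2 library. Small ratios at this abundance were not the rule. Of the 49 compared miRNAs with a mean level of 500 to 2000 units, 16 had a log2 ratio under 0.5 in size and 22 were at least 2-fold different. Over all 337 compared miRNAs the shares were 29.4% and 49.0%, so small ratios were not rare either.

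The guides from chromosome 8 were scarce or not seen. miR-181d-5p had a log2 value of 4.32 in the M1 library and 3.64 in the M2 library, or 19.0 and 11.4 units, which corresponds to 24 to 27 reads and 8 to 9 reads. Its level was 1.66 times higher in the M1 library, with a 95% counting interval of 0.722 to 4.28, so a difference was not detectable at this depth. The interval is exact Clopper-Pearson, as is each interval below. Its reads are the level divided by the highest worth of 1 read, rounded to the nearest whole read. miR-181b-5p, which miR-181d-5p resembles most, stood 68.2 times higher in the M1 library and 104 times higher in the M2 library. miR-181c-5p was listed at 0 in both, although it is only 1 edit away from the abundant miR-181a-5p. Added together, which does not depend on how reads were split unless shared reads were counted more than once, the 4 miR-181 guides reached 2486 units in the M1 and 2251 units in the M2 library. That is 0.362% and 0.306% of the summed level, and the log2 ratio of the sums was 0.14.

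miR-342-3p, the guide of the Evl hairpin, was the third abundant member. It had a log2 value of 9.91 in the M1 library and 9.46 in the M2 library, or 958 and 702 units, with ranks of 58 and 67. Its level was 1.36 times higher in the M1 library, a log2 ratio of 0.45, within the 2-fold line. Its passenger miR-342-5p had its values in the opposite order, with 57.8 units in the M1 and 68.2 units in the M2 library, a log2 ratio of -0.24. The counting interval of the miR-342-5p level, M2 over M1, was 0.804 to 1.72, which includes 1. The guide stood 16.6 times above the passenger in the M1 library and 10.3 times in the M2 library.

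miR-150-5p was rare in both libraries and showed the only difference over 2-fold among the members. Its log2 value was 3.48 in the M1 library and 5.18 in the M2 library, or 10.2 and 35.3 units. These levels correspond to 13 to 15 reads and 25 to 29 reads. The log2 ratio was -1.70, and the level was 3.46 times higher in the M2 library, with a counting interval of 1.70 to 7.36 that leaves out variation between cultures and libraries. In M1 exosomes the level lay just above the 10 unit minimum. Among the 337 compared miRNAs 36 had a lower ratio, and of the 119 with a mean level of 10 to 50 units, 31 were at least 2-fold higher in the M2 library. Differences past 2-fold were thus common at this abundance. miR-150-5p held 0.00149% of the summed level in the M1 and 0.00480% in the M2 library. miR-342-3p stood 94.0 times above it in the M1 library and 19.9 times in the M2 library. The passenger miR-150-3p was at 0 in both. From the highest level to the lowest, the members above 0 ran miR-181b-5p, miR-181a-5p, miR-342-3p, miR-181d-5p and miR-150-5p in the M1 library, and the last of these changed places with miR-181d-5p in the M2 library. Without replicates the spread around this order is unknown.

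**Figure D2:**
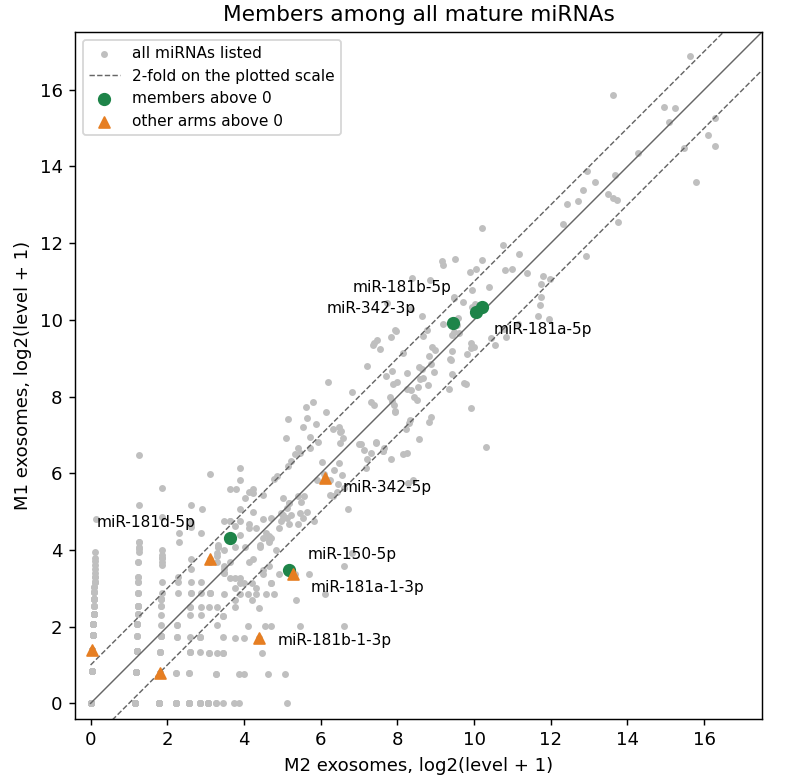
Log2 value in the M2 library (horizontal axis) against that in the M1 library (vertical axis) for all 1976 miRNAs (grey), the 5 members above 0 (green circles) and the 6 other arms above 0 in a library (orange triangles). The solid line marks equal values and the dashed lines 2-fold. miR-150-5p, miR-181a-1-3p and miR-181b-1-3p lie below the lower dashed line, with miR-181b-2-3p, at about 1 read against 2, on it, and the abundant members lie between the dashed lines.

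The passenger arms tell the miR-181 loci apart where the guides do not. The 4 passengers of the hairpins on chromosomes 1 and 2 have sequences of their own, shown here within their hairpins (RefSeq, GRCm38.p6, plus strand), with the 5p guide and then the 3p passenger in capitals.
Mir181a-1: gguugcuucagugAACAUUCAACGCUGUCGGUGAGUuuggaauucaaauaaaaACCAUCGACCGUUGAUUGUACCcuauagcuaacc
Mir181a-2: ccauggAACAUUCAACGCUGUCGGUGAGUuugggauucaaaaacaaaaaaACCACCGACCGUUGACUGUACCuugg
Mir181b-1: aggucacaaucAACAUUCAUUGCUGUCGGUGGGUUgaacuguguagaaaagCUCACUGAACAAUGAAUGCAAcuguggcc
Mir181b-2: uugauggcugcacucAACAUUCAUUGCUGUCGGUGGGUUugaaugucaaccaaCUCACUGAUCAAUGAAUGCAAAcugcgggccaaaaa

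Counted from the 5′ end of the passenger, miR-181a-1-3p and miR-181a-2-3p differ by U5C and U16C. miR-181b-1-3p and miR-181b-2-3p differ by A9U, and the second is 1 base longer. miR-181a-1-3p is as close to the chromosome 8 passenger miR-181c-3p, from which it differs by U16G and U19G. Whether mismatches were allowed in the alignment is not given in the sources used here. An exchange of reads between passengers this similar was not tested.

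Both passengers of the chromosome 1 locus were higher in the M2 library. miR-181a-1-3p had 9.40 units in the M1 library and 37.8 units in the M2 library, or 12 to 14 reads and 27 to 31 reads. Its log2 ratio was -1.90, and its level was 4.02 times higher in the M2 library (counting interval 1.97 to 8.71). miR-181b-1-3p had 2.27 and 20.1 units, about 3 reads against 14 to 16 reads. Its log2 ratio was -2.69, and its level was 8.83 times higher in the M2 library, with a wide counting interval of 2.46 to 47.9. With an offset of 5 units in place of 1 its log2 ratio was -1.79. Both intervals lie above 1 and cover counting error only. Both passengers reached the 10 unit minimum only in the M2 library, so they were compared only through the library where they are higher. With 10 units required in both libraries neither was compared. The guides miR-181a-5p and miR-181b-5p had log2 ratios of 0.15 and 0.13. These pool the hairpins of chromosomes 1 and 2, so the guide ratio of the chromosome 1 locus alone is unknown. Of the 4 other arms compared, these 2 were at least 2-fold higher in the M2 library, beside 22.8% of the 337 compared miRNAs. So were 31 of the 119 with a mean level of 10 to 50 units, so such differences were common at this abundance.

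For the chromosome 2 passengers a difference was not detectable at this depth. miR-181a-2-3p had 12.7 units in the M1 library and 7.65 units in the M2 library, 16 to 18 reads against about 6. Its level was 1.66 times higher in the M1 library, with a counting interval of 0.616 to 5.17 that includes 1. miR-181b-2-3p had 0.740 and 2.49 units, about 1 read against 2, and its ratio of 3.36 towards M2 exosomes has a counting interval of 0.175 to 199. From chromosome 8, miR-181c-3p had 1.61 units in the M1 library, about 2 reads, and a value of 0.0345 units in the M2 library, below the worth of 1 read. miR-181d-3p was listed at 0 in both libraries.

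**Figure D3:**
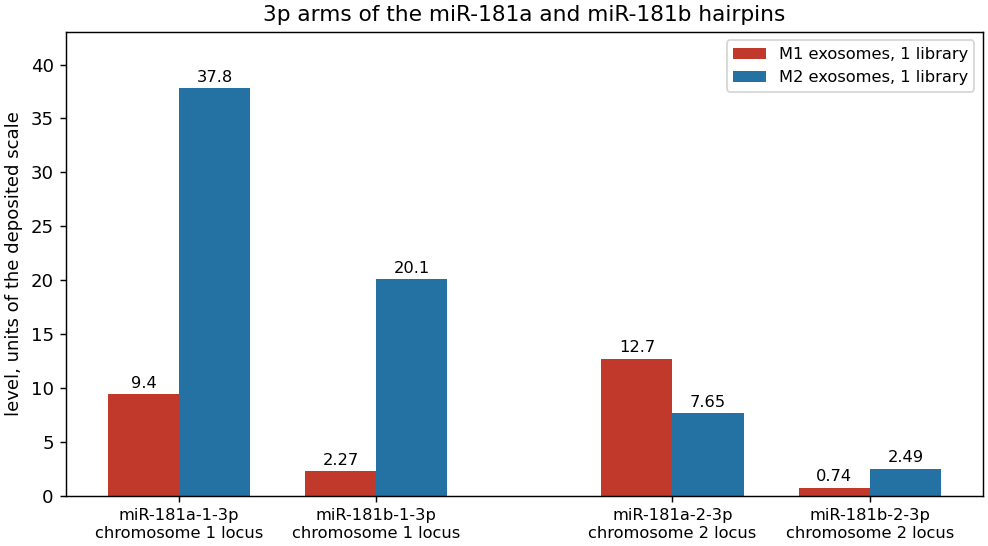
Level in units of the deposited scale (vertical axis, from 0) of the 3p arms of the miR-181a and miR-181b hairpins in the M1 library (red) and the M2 library (blue) with no error bars because there are no replicates. The chromosome 1 arms stand at 9.40 and 2.27 units in the M1 and at 37.8 and 20.1 units in the M2 library, and the chromosome 2 arms stay at or below 12.7 units.

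Added by locus, a grouping chosen after the single values were seen, the chromosome 1 passengers reached 11.7 units in the M1 library and 57.9 units in the M2 library. That is 4.96 times higher in the M2 library, with a counting interval of 2.69 to 9.62. The chromosome 2 passengers reached 13.4 and 10.1 units, 1.32 times higher in the M1 library, with an interval of 0.522 to 3.78. In reads, the chromosome 1 locus held 15 of 32 passenger reads from both loci in the M1 library, or 46.9% (95% Clopper-Pearson interval 29.1 to 65.3%). In M2 exosomes it held 42 of 49, or 85.7% (72.8 to 94.1%). These 2 intervals cover counting error only. Because the grouping was chosen after the values were seen, they cannot test a difference between the libraries. The difference between the loci was not tested, since each state has 1 library.

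The distance between guide and passenger, which rests on the same passenger reads, differed between the libraries. miR-181a-5p stood 53.0 times above its passengers added together in the M1 library and 23.2 times in the M2 library. miR-181b-5p stood 430 times above its passengers in the M1 library and 52.6 times in the M2 library. Both changes came with a nearly level guide and a passenger sum that was higher in the M2 library. The M1 value for miR-181b rests on about 4 passenger reads, and its log2 guide over passenger difference of 8.34 became 7.34 with an offset of 5 units.

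By distance in the plane of the 2 log2 values, over the 337 compared miRNAs and 2 libraries, the nearest neighbours of the abundant members were other miRNAs of like level and a small ratio. For miR-181a-5p these were miR-3535 at a distance of 0.18, miR-101a-3p at 0.21 and miR-181b-5p at 0.23. For miR-181b-5p they were miR-101a-3p at 0.19, miR-181a-5p at 0.23 and miR-3535 at 0.27. miR-342-3p was nearest to miR-3473b at 0.10, miR-3074-5p at 0.20 and miR-24-2-5p at 0.24. The nearest to miR-181d-5p were miR-148a-5p at 0.27, miR-7a-1-3p at 0.29 and miR-672-5p at 0.34. The nearest to miR-150-5p was the chromosome 1 passenger miR-181a-1-3p at 0.14, followed by miR-3068-3p at 0.18 and miR-5129-3p at 0.30. With 2 libraries such likeness means only a similar pair of values.

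Other miRNAs with roles in lymphocytes had log2 ratios from -1.27 to 2.28. Of a list of 17, 15 were compared, and 5 of these exceeded 2-fold towards the M1 library, 2 exceeded it towards the M2 library and 8 lay within it. Over all compared miRNAs the shares were 26.1% and 22.8%, so the list's 7 of 15 stood near the background of 49.0%. Their median log2 ratio was 0.40, beside 0.04 over all compared miRNAs. With a minimum of 100 units these medians were 0.84 and 0.16. Those higher in the M1 library were miR-155-5p (1.35), which germinal centre B cells need, miR-19b-3p (1.37), which comes from a proliferation-promoting cluster, miR-146a-5p (1.25), a brake on NF-κB, miR-142a-5p (1.72) and the hypoxia-induced miR-210-3p (2.28). miR-148a-3p (-1.27), linked to B cell tolerance, and miR-142a-3p (-1.07) were higher in the M2 library. Within 2-fold were miR-17-5p, miR-20a-5p, miR-92a-3p, miR-29a-3p, miR-29b-3p, miR-34a-5p, miR-182-5p and miR-326-3p, between -0.92 and 0.96. miR-18a-5p and miR-19a-3p were below the minimum. The 5 compared members ranged from -1.70 to 0.69.

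**Figure D4:**
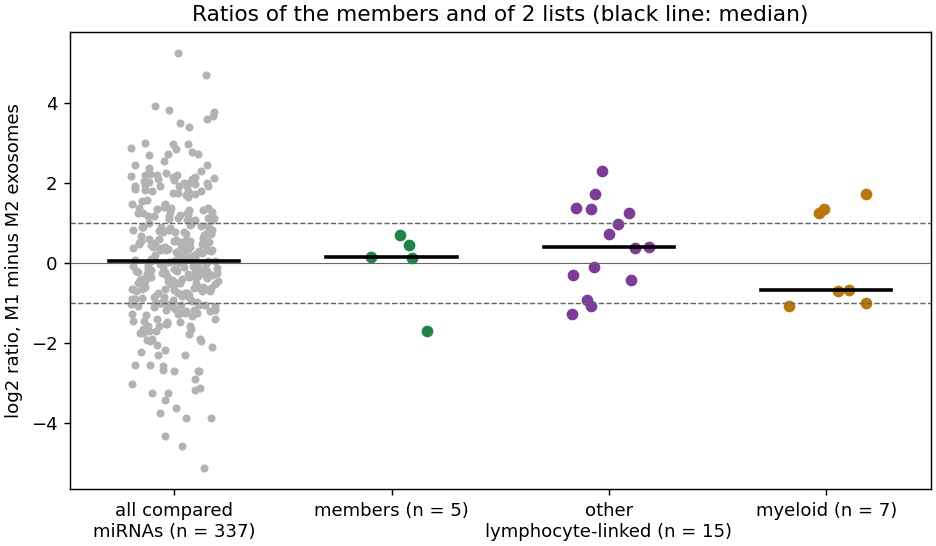
Log2 ratio, M1 minus M2 exosomes (vertical axis), of all 337 compared miRNAs (grey), the 5 compared members (green), 15 compared miRNAs of the other lymphocyte-linked list (purple) and 7 of the myeloid list (brown); points are spread sideways at random, black lines are medians and dashed lines mark 2-fold. The other compared members lie between the dashed lines near a median of 0.15, and miR-150-5p lies at -1.70.

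The 7 miRNAs of the myeloid list were all present in both libraries, at a summed level of 147967 units in the M1 library and 99529 units in the M2 library. Of the 7, 3 were over 2-fold higher in the M1 library (miR-142a-5p, miR-155-5p and miR-146a-5p), 1 in the M2 library (miR-142a-3p) and 3 lay within 2-fold. Over all 337 compared miRNAs the shares were 26.1% towards the M1 and 22.8% towards the M2 library, or 49.0% in either direction. With 7 miRNAs these shares do not set the list apart. The median log2 ratio of the list was -0.66, while that of its summed levels, most of which miR-146a-5p held, was 0.57. Among those within 2-fold, miR-223-3p, the myeloid miRNA of that list best known from granulocytes and monocytes, had 630 and 1019 units, and miR-223-5p had 615 and 975 units. The ratio of miR-21a-5p was -0.99 (log2). The list shares miR-155-5p, miR-146a-5p and both arms of miR-142a with the lymphocyte-linked list, so the lists are not independent.

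Levels of other cell types' miRNAs are given because marrow cultures can hold cells other than macrophages. A list of 5 lymphocyte markers (miR-150-5p, miR-150-3p, miR-181a-5p, miR-342-3p and miR-155-5p) summed to 4568 units in the M1 and 2743 units in the M2 library, the opposite direction to miR-150-5p. miR-155-5p, which activated macrophages also make, held 2429 and 952 units of these sums. miR-150-5p, the marker most tied to mature lymphocytes, stood at 10.2 and 35.3 units with miR-150-3p at 0. The 4 erythroid markers summed to 5192 units in the M1 and 910 units in the M2 library, and the 4 stromal markers to 1289 and 744 units. Of the 3 compared erythroid markers all 3 were over 2-fold higher in the M1 library, with log2 ratios of 2.36 to 3.76. Of the 3 compared stromal markers 2 were over 2-fold higher in the M1 library and 1 had a log2 ratio of -0.33. Over all 337 compared miRNAs the share higher in the M1 library was 26.1%. The 2 endothelial and platelet markers summed to 962 and 589 units, and both lay within 2-fold. The part of other cells in the miR-150-5p and miR-181 values was not tested. In exosomal RNA from a whole culture, fewer cells of a type and less RNA released per cell cannot be told apart.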

How the data were processed

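Exosomal small RNA of 2 libraries, 1 per group, was analysed. Per the labels' protocols, exosomes were isolated by ultracentrifugation and 500 ng of Trizol-extracted RNA went into NEBNext small RNA libraries. Per the submitters' processing notes, Bowtie2, bedtools and the mm10 build were used. For counting, multiple matches and normalization, the method is not given in the sources used here. Files deposited by the authors hold 1 log2 value per mature miRNA, judged from the values to be log2(level + 1). The low values of each library shift with those of the other, so the libraries were treated as normalized together, and read numbers are approximate and given only below 100 units. Counting intervals use 95% exact binomial limits.

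Ratios, 2-fold calls and sums were computed with Python 3.11.15, numpy 2.4.6 and pandas 2.3.3. The procedure was tested on simulated data for the recovery and direction of planted changes larger than 2-fold. That simulation held counting error only, and false calls among unchanged miRNAs were not checked. No test of the conditions was possible with 1 library per group. The members and lists were chosen with earlier results of these data known. The miRNAs named are the members, the other arms of their hairpins, the 3 nearest compared miRNAs of each compared member and the compared miRNAs of the lymphocyte-linked and myeloid lists. Outside that rule, the lymphocyte-linked miRNAs below the minimum are named to account for the list. Alternatives were other minimums, scalings and offsets.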

Additional observations from a re-analysis of the deposited data

How the results depend on the processing

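No paired analysis was possible because M1 and M2 exosomes were each sequenced as 1 library, which also prevents leaving libraries out. Other minimums decide only which miRNAs are compared and leave the ratio of a single miRNA unchanged. Under 3 scalings and 2 offsets, the log2 ratio of miR-150-5p stayed between -1.76 and -1.41. That of miR-181a-5p stayed between 0.09 and 0.25 and that of miR-342-3p between 0.38 and 0.55. Under the same scalings and offsets the summed miR-181 guides kept 0.08 to 0.24 and the chromosome 1 passengers added together -2.28 to -1.91. Between the offsets the log2 difference of miR-181b-5p over its passengers ran from 7.34 to 8.53 in M1 and from 5.43 to 5.69 in M2 exosomes. The median of the other lymphocyte-linked list ran from 0.33 to 0.84, beside -0.02 to 0.16 over all compared miRNAs. With a minimum of 100 units miR-150-5p and miR-181d-5p were not compared, which left 0 members higher in M2 exosomes. The passengers miR-181a-1-3p, miR-181b-1-3p and miR-181a-2-3p were compared neither with that minimum nor with 10 units in both libraries. In the other lymphocyte-linked list, division by the summed level gave 6 miRNAs at least 2-fold higher in M1 and 1 in M2 exosomes. These stood in place of 5 and 2. The counts were 5 and 3 with no minimum, and 4 and 2 with 100 units. Over all miRNAs, those higher in M1 and in M2 exosomes numbered 201 and 229 with no minimum, 37 and 33 with 100 units, and 55 and 37 with 10 units in both libraries. Few reads stand behind miR-150-5p, miR-181d-5p and the miR-181 passengers, and replicate variation is unknown for all values.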
